A study of Mus musculus with 8 samples.

Results

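Lyz1, Lyz2, Mmp7, Ang4, Itln1 and Pnliprp2 encode secreted proteins known from the granules of Paneth cells, the antimicrobial cells at the base of small intestinal crypts. They were taken by name, including the older names in the scanner files, from the 27573 gene names on the arrays, and all 6 were found, on 8 probes. None of their spots was saturated or marked as an outlier. Each gene was well above background on every array through its brightest probe, so all 6 entered every test.

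RNA was measured on 8 two-colour mouse arrays carrying 4 RNA pairs, each hybridised to 2 arrays with the dyes swapped. Deleted epithelium came from the small intestine of Ah-Cre/Ascl2floxed/floxed mice, and its control from Ah-Cre/Ascl2floxed/wt mice, at 5 and at 3 days after induction. The controls thus carry the same Cre, which the Ah promoter (that of Cyp1a1) drives when induced, and 1 floxed copy of Ascl2, a transcription factor of crypt stem cells. GFPhi and GFPlo cells were sorted from intestines of Lgr5-EGFP-ires-CreERT2 mice, in which GFP is made from the Lgr5 gene, and each of the 2 sorts pooled 3 mice. The sources used here give no ages and no inducing agent, and do not say how many animals stand behind a deletion pair. Each comparison therefore had n = 2 RNA pairs, and each day had n = 1. A p-value reflects only how far RNA pairs spread. In the joint fit that spread includes the difference between the 2 deletion days, and it enters the p-values of both comparisons. The test of the day difference takes its spread from the sorts alone. Each RNA pair was hybridised on a slide of its own, so slide, scan and RNA pair cannot be told apart, nor can slide and day.

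Paneth cells pack their products into large granules and release them into the crypt lumen. Lysozyme cuts bacterial cell walls, angiogenin 4 is a ribonuclease with bactericidal activity in the mouse, and intelectin is a lectin that binds microbial sugars. Matrilysin, the product of Mmp7, is the protease that activates mouse cryptdins, the alpha-defensins of the same granules. Pnliprp2 is a lipase related to pancreatic lipase that is also made outside the pancreas.

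On day 5 after induction Lyz2 and Mmp7 were higher in deleted than in control epithelium on both arrays, as were 31.5% of tested genes. By brightest probe, Lyz1, Ang4 and Itln1 lay on both sides of 0 that day, and Pnliprp2 was lower. On day 3 all 6 genes were lower in deleted epithelium on both arrays, as were 39.4% of tested genes. By brightest probe the 6 genes were 1.77-fold to 7.83-fold lower, with Ang4 lowest, and a second, dimmer Lyz2 probe was 1.19-fold lower. The difference between the days passed the test for 5 of the 6 genes, all but Pnliprp2, and for 28.6% of all tested genes. That test had 1 RNA pair a day and took its spread from the sorts, and all 5 calls were lost with the scanner software's log ratios or with median centring. In the sorts no gene passed, and none had a mean ratio of GFPhi over GFPlo as far from 0 as its day 3 ratio of the deletion. In bulk epithelium, fewer Paneth cells, less RNA per Paneth cell and a different mix of other cells cannot be told apart. On day 3, lists of enterocyte, T cell and crypt base stem cell genes had median log2 ratios of 0.66, 1.08 and -1.02.

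By brightest probe, Lyz1 and Lyz2 had similar ratios on the arrays, as did Ang4 and its relative Ang6. The probes of each pair may share RNA, and the dimmer Lyz2 probe had -0.25 on day 3, against -1.20 for Lyz1. The 250 bases upstream of the annotated starts of these genes are shown side by side. The sequences are from RefSeq on GRCm38.p6, run 5′ to 3′ on the strand of the gene, and carry in capitals the longest run that the 2 genes of a pair share without a mismatch. Lyz1 lies at chr10:117292869-117293118 and Lyz2 at chr10:117282273-117282522, both on the minus strand. Ang4 lies at chr14:51773591-51773840 and Ang6 at chr14:44006419-44006668, also on the minus strand.
Lyz1: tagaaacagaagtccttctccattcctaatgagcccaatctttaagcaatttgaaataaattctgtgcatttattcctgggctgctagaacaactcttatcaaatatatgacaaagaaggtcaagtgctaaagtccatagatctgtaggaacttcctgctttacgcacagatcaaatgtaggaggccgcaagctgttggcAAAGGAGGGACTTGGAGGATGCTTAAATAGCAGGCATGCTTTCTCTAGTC
Lyz2: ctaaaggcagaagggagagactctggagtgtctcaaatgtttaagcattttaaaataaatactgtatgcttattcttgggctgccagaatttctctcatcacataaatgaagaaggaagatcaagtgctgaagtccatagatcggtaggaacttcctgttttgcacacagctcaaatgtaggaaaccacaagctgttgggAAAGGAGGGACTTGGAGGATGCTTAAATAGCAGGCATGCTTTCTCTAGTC
Ang4: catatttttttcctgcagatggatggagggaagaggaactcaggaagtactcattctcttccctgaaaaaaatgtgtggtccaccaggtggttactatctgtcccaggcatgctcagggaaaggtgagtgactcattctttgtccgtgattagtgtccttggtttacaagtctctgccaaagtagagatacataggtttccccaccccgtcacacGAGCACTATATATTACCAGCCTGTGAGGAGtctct
Ang6: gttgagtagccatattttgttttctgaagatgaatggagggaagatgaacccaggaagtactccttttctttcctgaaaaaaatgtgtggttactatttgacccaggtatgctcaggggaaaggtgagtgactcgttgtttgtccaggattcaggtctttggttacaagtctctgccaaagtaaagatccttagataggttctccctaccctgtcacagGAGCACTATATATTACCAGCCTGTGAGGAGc

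The lysozyme windows were identical at 200 of 252 aligned positions (79.4%), and the shared run filled the 50 bases next to the start. The angiogenin windows were identical at 208 of 267 aligned positions (77.9%), with a shared run of 30 bases close to the start. The E-box CAGGTG, a run that basic helix-loop-helix factors such as Ascl2 can bind, was sought on both strands. It was present upstream of Ang4, of Pnliprp2 and of 1 of the 2 annotated starts of Mmp7, that is in 3 of 7 member windows, while 17.2% of all 32851 windows held it. The E-box CAGCTG was in 0 of 7 member windows and in 13.0% of all. The Tcf-type run ATCAAAG, sought on both strands, was found upstream of the same Mmp7 start, and in 3.21% of all windows. TATAAA on the gene strand was found upstream of the other Mmp7 start, and in 7.59% of all windows. In the member windows these matches did not overlap each other, and they describe letters, not bound factors.

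The lysozyme genes are neighbours on chromosome 10. The probe for Lyz1 spans positions 116692308 to 116692367 on the minus strand in build mm8, the build of all probe positions here, and carries the older name Lzp-s. It is annotated to the transcripts of both lysozyme genes, so its signal may hold Lyz2 RNA. The brighter Lyz2 probe spans 116681504 to 116681563 and is named Lyzs in the files, an older symbol that its accession ties to Lyz2. Lyz1 is the lysozyme of Paneth cells, and Lyz2 that of macrophages and other myeloid cells, although the intestine expresses both.

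Lyz1 had log2 ratios of deleted over control of 0.83 and -0.05 on the 2 arrays of day 5, and of -1.46 and -0.93 on those of day 3. The day 5 arrays lay on either side of 0, while both day 3 arrays were low. As means of both arrays, Lyz1 was 1.31-fold higher in deleted epithelium on day 5 and 2.29-fold lower on day 3. Lyz2 had 0.53 and 0.38 on day 5, and -1.14 and -0.88 on day 3. Every day 5 array lay above 0 and every day 3 array below it, with means of 1.37-fold higher and 2.01-fold lower in deleted epithelium. A dimmer Lyz2 probe, at positions 116686229 to 116686288, had 0.77 and 0.60 on day 5, and -0.21 and -0.28 on day 3. It gave the same order of the days, but its mean on day 3 (-0.25) was much closer to 0 than that of the brighter probe (-1.01). Its processed intensities on the deletion arrays were 195 to 422, against 34800 to 98934 on the brighter probe. Whether the brighter Lyz2 probe also holds Lyz1 RNA was not tested.

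**Figure D1:**
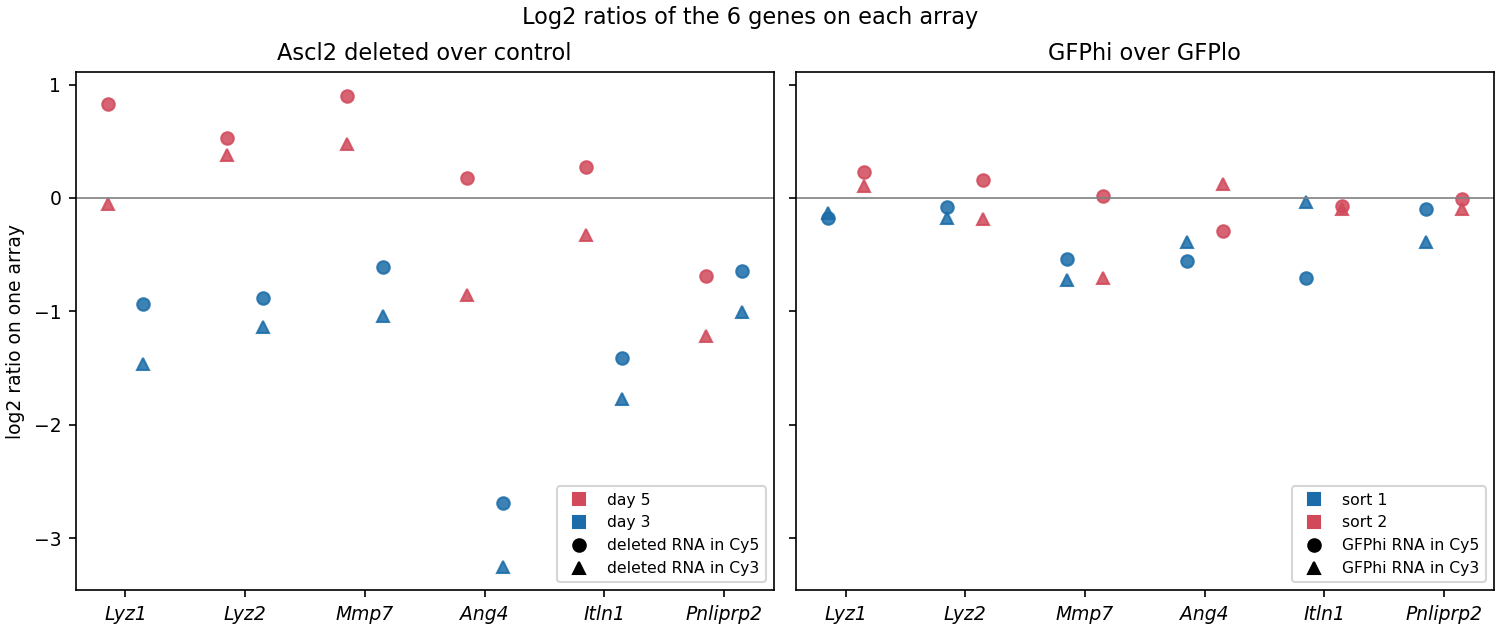
Log2 ratio of each of the 6 genes (x axis, brightest probe) on each array (y axis), deletion at left and sorts at right, with colours for the RNA pair and shapes for the dye. All 12 day 3 points lie below 0, from -3.25 for Ang4 to -0.61 for Mmp7, while the sort points stay between -0.72 and 0.23.

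Mmp7, at positions 7697311 to 7697370 on the plus strand of chromosome 9, had 0.90 and 0.48 on day 5, and -1.04 and -0.61 on day 3. Its 2 days did not overlap, and Mmp7 was 1.61-fold higher in deleted epithelium on day 5 and 1.77-fold lower on day 3. By brightest probe, Mmp7 was the member highest in deleted epithelium on day 5, at rank 15468 of 15891 tested genes from the lowest. The dimmer Lyz2 probe was level with it that day, both at a mean log2 ratio of 0.69.

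Ang4, at positions 50686342 to 50686401 on the minus strand of chromosome 14, had 0.18 and -0.86 on day 5, and -3.25 and -2.69 on day 3. At 7.83-fold lower in deleted epithelium on day 3, Ang4 had rank 7 from the lowest among the 15891 genes tested. Its second probe, at positions 50685817 to 50685856, had -0.06 and -0.28 on day 5, and -2.36 and -2.00 on day 3. Both probes thus had Ang4 far below control on day 3, by 7.83-fold and 4.52-fold. On day 5 it was 1.27-fold and 1.13-fold lower as means, with the brighter probe at rank 1061 from the lowest.

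**Figure D2:**
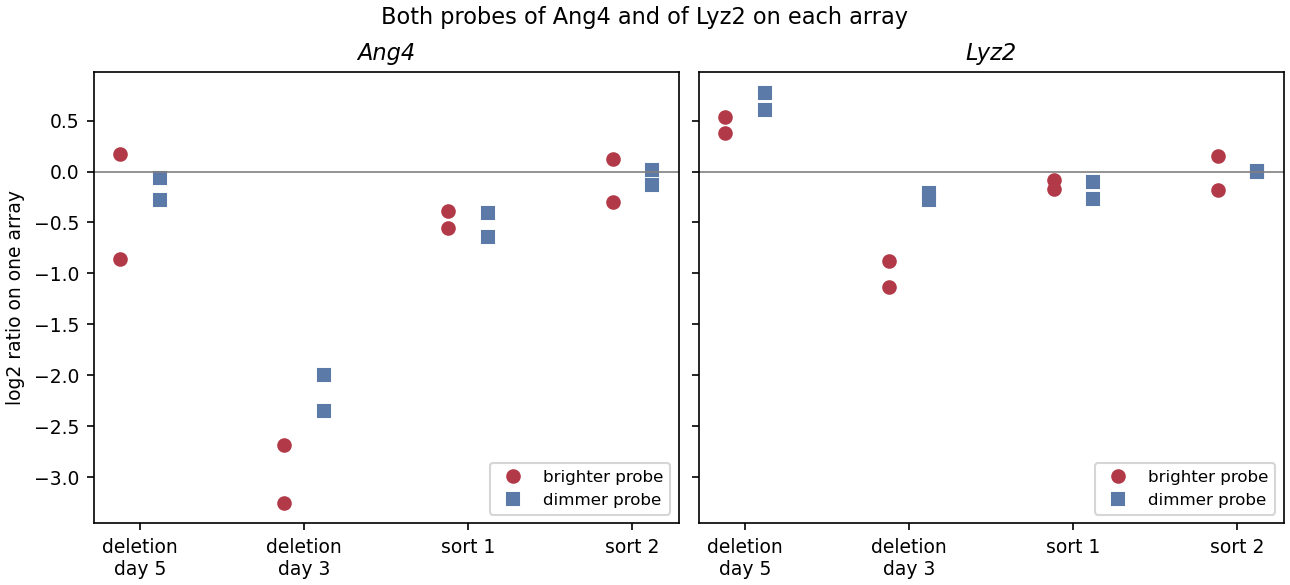
Log2 ratio on each array (y axis) of both probes of Ang4 and of Lyz2 in each RNA pair (x axis), deleted over control or GFPhi over GFPlo. On day 3 the Ang4 probes lie at -3.25 and -2.69 and at -2.36 and -2.00, whereas the brighter Lyz2 probe lies at -1.14 and -0.88 and the dimmer at -0.21 and -0.28.

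Itln1, which the files call Itlna, at positions 173367222 to 173367280 on the minus strand of chromosome 1, had 0.27 and -0.33 on day 5, and -1.77 and -1.41 on day 3. Its mean on day 5 was -0.03, and it was 3.01-fold lower in deleted epithelium on day 3. Intelectin is made by goblet cells too, and the goblet cell list had a median of -0.04 on day 5 and of 0.27 on day 3. That list was split on day 3, from -1.41 to 1.91, with 7 of 16 genes below 0.

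Pnliprp2, at positions 58827320 to 58827379 on the plus strand of chromosome 19, had -0.69 and -1.22 on day 5, and -1.01 and -0.65 on day 3. All 4 arrays lay below 0, and the 2 days overlapped, with means of 1.94-fold and 1.78-fold lower in deleted epithelium. By brightest probe it was the only member below 0 on all 4 deletion arrays (the second Ang4 probe was too), a pattern that 13.3% of tested genes showed. On day 5 it had rank 173 from the lowest of the 15891 genes.

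Over the mean of both days the test found 0 of 6 members changed by limma's adjusted p, as it found 0% of all 15891 genes, although 1534 of them (9.65%) had an unadjusted p under 0.05. Pnliprp2 came closest, at a log2 ratio of -0.89 ± 0.09 (SD, n = 2 RNA pairs) with a standard error of 0.10 (limma adjusted p = 0.366, unadjusted p = 0.00078, lower on 4 of 4 arrays). With single arrays fitted and each RNA pair a random block, Pnliprp2 passed at a limma adjusted p of 0.0429, as did 1.60% of all genes. The others had a wide spread, with the days far apart, as in Ang4 at -1.65 ± 1.86 (SD, n = 2; limma adjusted p = 0.528) and Itln1 at -0.81 ± 1.10 (adjusted p = 0.553). Lyz1 averaged -0.40 ± 1.12 (adjusted p = 0.698), Lyz2 -0.28 ± 1.04 (adjusted p = 0.777) and Mmp7 -0.07 ± 1.07 (adjusted p = 0.953). These means rest on the day. With day 3 left out, Mmp7 passed as higher at 0.69 (limma adjusted p = 0.0465) and Pnliprp2 as lower at -0.95 (adjusted p = 0.0124), while 7.83% of all genes passed. With day 5 left out, 6 of 6 members passed as lower, at limma adjusted p from 0.0029 to 0.0105, where 38.9% of all genes passed. In both of these fits the spread comes from the sorts alone.

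Lyz2 and Mmp7 were above 0 on both day 5 arrays, as were 31.5% of tested genes. All 6 members were below 0 on both day 3 arrays, which held for 39.4% of tested genes. By brightest probe, Lyz1, Lyz2, Ang4 and Itln1 were at least 2-fold lower in deleted epithelium on day 3, which held for 2.47% of tested genes. Lyz2 only just met that cut, at 2.01-fold, and its dimmer probe, at 1.19-fold, did not. The members' median log2 ratio was 0.18 on day 5 and -1.10 on day 3, beside -0.01 and 0.00 over all genes tested.

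The difference between the days, day 5 minus day 3 of the deleted over control log2 ratio, was positive and passed the test for 5 of the 6 members. Of all tested genes 28.6% passed, 15.9% in that direction and 12.7% in the other. Ang4 had the largest difference of the 6, at 2.63 with a standard error of 0.21 (limma adjusted p = 0.00575). Lyz1 followed at 1.59 (SE 0.18, adjusted p = 0.00979), Itln1 at 1.56 (SE 0.17, adjusted p = 0.00913), Mmp7 at 1.51 (SE 0.17, adjusted p = 0.00944) and Lyz2 at 1.46 (SE 0.12, adjusted p = 0.00592), all from limma. These last 4 lay closer together than 1 standard error of the Lyz1 value. Pnliprp2 differed by -0.13 (SE 0.14, limma adjusted p = 0.548). With n = 1 RNA pair a day, the test borrows its spread from the 2 sorts, and it holds no measure of how much a deletion pair would differ from another of the same day. The call was lost for all 5 with the scanner software's own log ratios and with median centring in place of loess, and for all but Ang4 with no normexp offset, although each difference kept its sign.

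**Figure D3:**
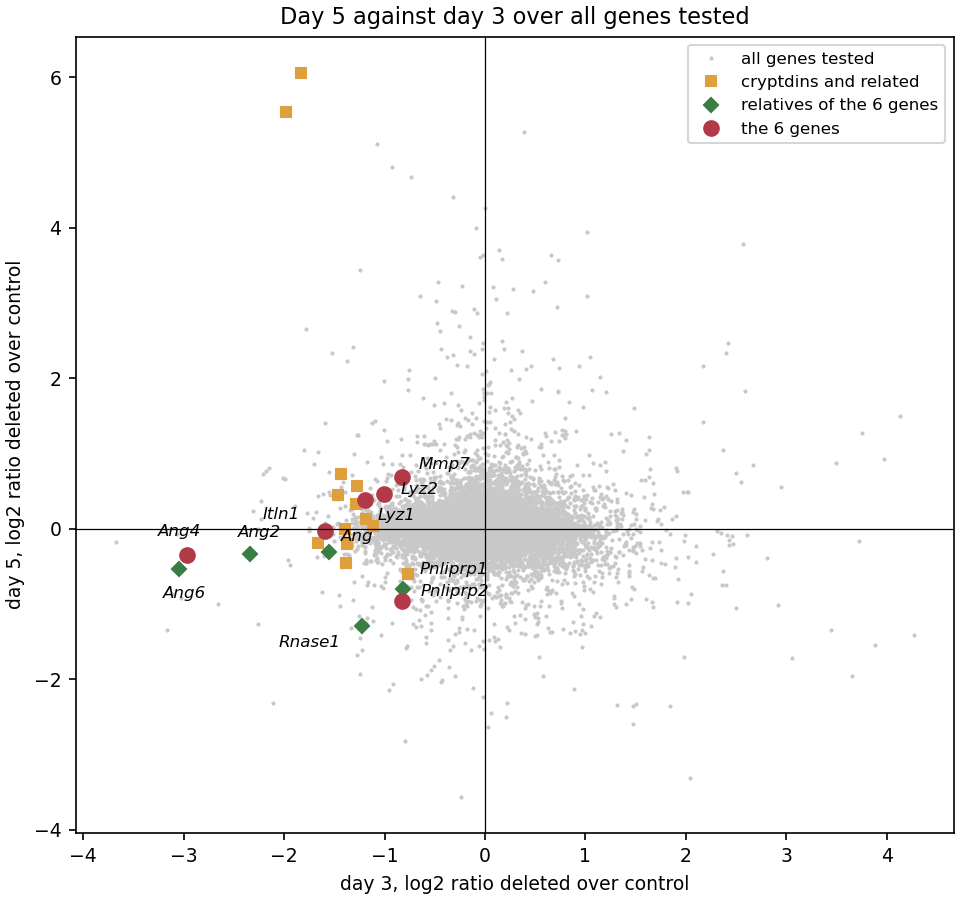
Log2 ratio of deleted over control on day 5 (y axis) and day 3 (x axis) for the 15891 genes tested, each point the mean of 2 arrays, with the 6 genes, the cryptdins and 5 labelled relatives of the 6 genes coloured. Ang4 and Ang6 lie far left, at -0.34 and -0.53 on day 5, while Pnliprp2 (-0.95), Pnliprp1 (-0.80) and Rnase1 (-1.30) lie lower on day 5 than they do.

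Each RNA's own level was also set between arrays, a comparison across slides in which slide and day cannot be told apart. After quantile scaling of the arrays' mean intensities, Ang4 had log2 levels in deleted epithelium of 17.1 and 16.5 on day 5, and of 13.9 and 14.7 on day 3. In control epithelium it had 16.9 and 17.3 on day 5, and 17.1 and 17.4 on day 3. For Ang4 the deleted RNA of day 3 alone stood apart. The mean level of Ang4 on day 5 minus that on day 3 was 2.47 in deleted and -0.16 in control epithelium. The same difference in deleted epithelium was 1.17 for Lyz1 and for Lyz2, 1.38 for Mmp7, 1.43 for Itln1 and 0.02 for Pnliprp2. In control epithelium it was -0.42 for Lyz1, -0.30 for Lyz2, -0.13 for Mmp7, -0.14 for Itln1 and 0.15 for Pnliprp2. Over all genes the median was 0.06 in deleted and 0.04 in control epithelium, and 5% of all genes had 1.23 or more in deleted epithelium, above the values of Lyz1 and Lyz2. The scanner software's processed intensities gave a median difference over all genes of -0.97 in deleted and -1.01 in control epithelium. Relative to it, the 5 genes stood 1.02 to 2.33 higher in deleted RNA, and in control RNA between -0.41 and -0.20.

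**Figure D4:**
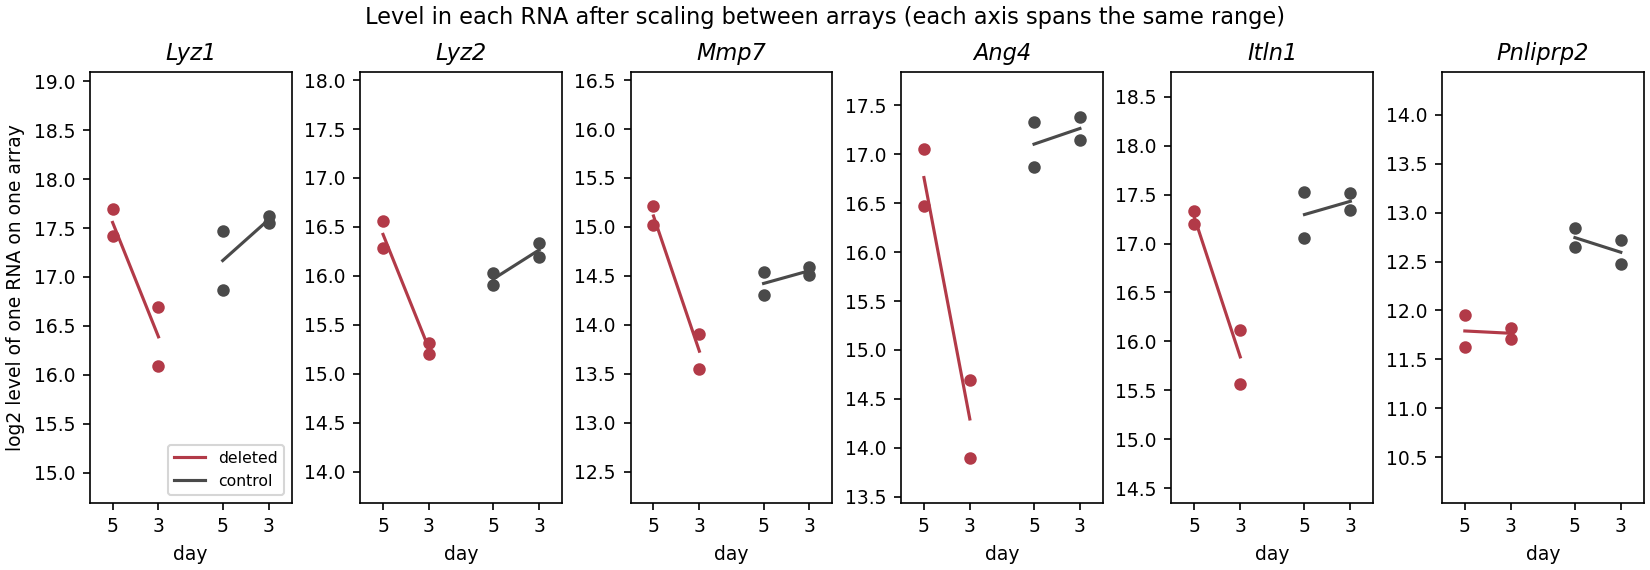
Log2 level of each gene in deleted epithelium (left of each panel) and control epithelium (right) on days 5 and 3, after quantile scaling between arrays, with 1 point per array and a line through the means. In 5 panels the deleted day 3 points lie lowest, and in the Pnliprp2 panel both deleted days lie below both control days.

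Products that share the granule with the members gave a similar picture on the arrays. Of the 13 tested cryptdin and cryptdin-related genes 5 were below 0 on day 5, at a median of 0.13, and all 13 on day 3, at a median of -1.38. Of these, 10 passed the day difference as higher on day 5 and none as lower. Over all tested genes 15.9% passed as higher and 12.7% as lower, shares to set beside each list below as well. Defcr-rs2 and Defcr-rs10 stood out at 6.06 and 5.54 on day 5, against -1.83 and -1.98 on day 3. Neither was bright enough to be tested in the sorts, so the spread behind their calls is that of dim spots. The cryptdins have closely related sequences, so their probes may share RNA.

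Other Paneth cell genes were mixed, with 9 of 18 below 0 on day 5 (median 0.03) and 11 of 18 on day 3 (median -0.31). Of these, 7 passed the day difference as higher on day 5 and 1 as lower. Mptx1, a secreted pentraxin, had 0.56 on day 5 and -1.44 on day 3, and Pla2g2a, a bactericidal phospholipase, had 0.58 and -1.25. Clps, the colipase that assists pancreatic lipase, had -0.34 and -0.78 and did not pass (limma adjusted p = 0.225). Wnt3, the Paneth cell's Wnt ligand, had -0.27 and -0.74, and its day difference passed (adjusted p = 0.0389). Egf, at -0.39 on both days, did not pass (adjusted p = 0.983). Guca2b, the gene of uroguanylin, went the other way, with -0.97 on day 5 and 0.25 on day 3 (adjusted p = 0.00735). The enterocyte list had that order of the days too, with medians of -0.44 and 0.66. Nod2 had 0.28 on day 5 and 0.35 on day 3, Cd24a -0.14 and -0.31, and Fzd5 0.23 and 0.12. None of these passed the day difference (limma adjusted p from 0.325 to 0.724).

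Factors that specify or mature secretory cells had a median of 0.01 on day 5 and 0.00 on day 3, and 3 of 10 passed the day difference as higher on day 5 and 1 as lower. Bhlha15, a factor of secretory cell maturation, had 0.09 on day 5 and -1.01 on day 3, a difference that passed (adjusted p = 0.0307), and Neurog3, the factor of endocrine precursors, had 0.01 and -0.62 (adjusted p = 0.0332). Sox9, which Paneth cells need, had -0.20 on day 5 and -0.81 on day 3, and its day difference passed (limma adjusted p = 0.0222). Xbp1, which Paneth cells need for their secretory load, had 0.25 and 0.17. Spdef, a goblet and Paneth cell factor, had 0.01 and 0.14, and Gfi1, which steers secretory precursors away from the endocrine fate, had 0.01 and 0.14. None of these 3 passed the day difference (limma adjusted p from 0.767 to 0.875). Klf4, a goblet cell factor, had 0.25 on day 5 and 1.74 on day 3, and passed (adjusted p = 0.0177).

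Of 14 tested relatives of the members, 7 passed the day difference as higher on day 5 and 1 as lower. Ang6 had -0.53 on day 5 and -3.05 on day 3, Ang2 -0.33 and -2.34, and Ang -0.30 and -1.56. Their day differences of 2.51, 2.01 and 1.25 passed (limma adjusted p from 0.0043 to 0.0201). The angiogenin genes are close in sequence, so their probes may share RNA. Rnase4, a ribonuclease gene of the same cluster, had 0.12 and 0.53 (adjusted p = 0.0628). Rnase1 had -1.30 and -1.22, low on both days. Pnliprp1, the pancreatic relative of Pnliprp2, had -0.80 and -0.82, beside -0.95 and -0.83 for Pnliprp2. Timp1, Timp2 and Timp3, inhibitors of matrix metalloproteinases such as matrilysin, had 3.27, 1.71 and 1.47 on day 5 and 0.60, -0.0053 and -0.09 on day 3, and all 3 day differences passed (adjusted p from 0.0028 to 0.0064). The membrane-bound metalloproteinases went opposite ways, with Mmp14 at -0.01 on day 5 and -0.67 on day 3, a difference that passed (adjusted p = 0.0213), and Mmp15 at -0.22 and 1.01 (adjusted p = 0.0127).

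The genes whose ratios lay closest to a member's were found by the root mean square difference of the log2 ratio over the 8 arrays. Each member was set against 10246 genes tested in both comparisons. Genes without an ordinary symbol may have lain closer but were skipped, and the 3 closest of the rest are given. For Ang4 they were Ang6 (0.34), Hspa1a (0.39) and Ang2 (0.45). For Lyz1 they were Elf3 (0.23), Crybg3 (0.24) and Lyz2 (0.25), and for Lyz2 Trmt61a (0.14), Myef2 (0.14) and Mybl2 (0.15). Mmp7 had Tmem50b (0.26), Dynll1 (0.29) and Osbpl5 (0.31), and Itln1 had E2f8 (0.30), Gls2 (0.30) and Reg3a (0.31), a bactericidal lectin gene. Pnliprp2 had Tedc1 (0.18), Cyp2c29 (0.22) and Ces2g (0.22). Between members, the smallest difference was that of Lyz1 and Lyz2 (0.25) and the largest that of Mmp7 and Ang4 (1.25). A small difference on 8 arrays of 4 RNA pairs describes likeness in these samples alone.

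Genes of other cells also differed between these RNAs. Of 12 T cell genes, 9 were below 0 on day 5, at a median of -0.05, and 1 on day 3, at a median of 1.08 and a range from -0.52 to 1.80. Enterocyte genes had medians of -0.44 on day 5 and 0.66 on day 3, and 8 of 13 passed the day difference as lower on day 5. Crypt base stem cell genes, a list that includes the deleted gene Ascl2, had medians of -0.43 and -1.02. Myeloid genes, of interest for Lyz2, had medians of 0.12 and 0.16, with 5 of 21 below 0 on day 5 and 8 of 21 on day 3, and S100a9, a neutrophil gene, reached 3.95 on day 5. Pancreas acinar genes, of interest for Pnliprp2, had medians of -0.07 and -0.04, with 7 of 10 below 0 on day 5 and 5 of 10 on day 3. That list shares Pnliprp1 and Rnase1 with the relatives and Zg16 with the goblet list. The part of these cells in the members' ratios was not tested.

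**Figure D5:**
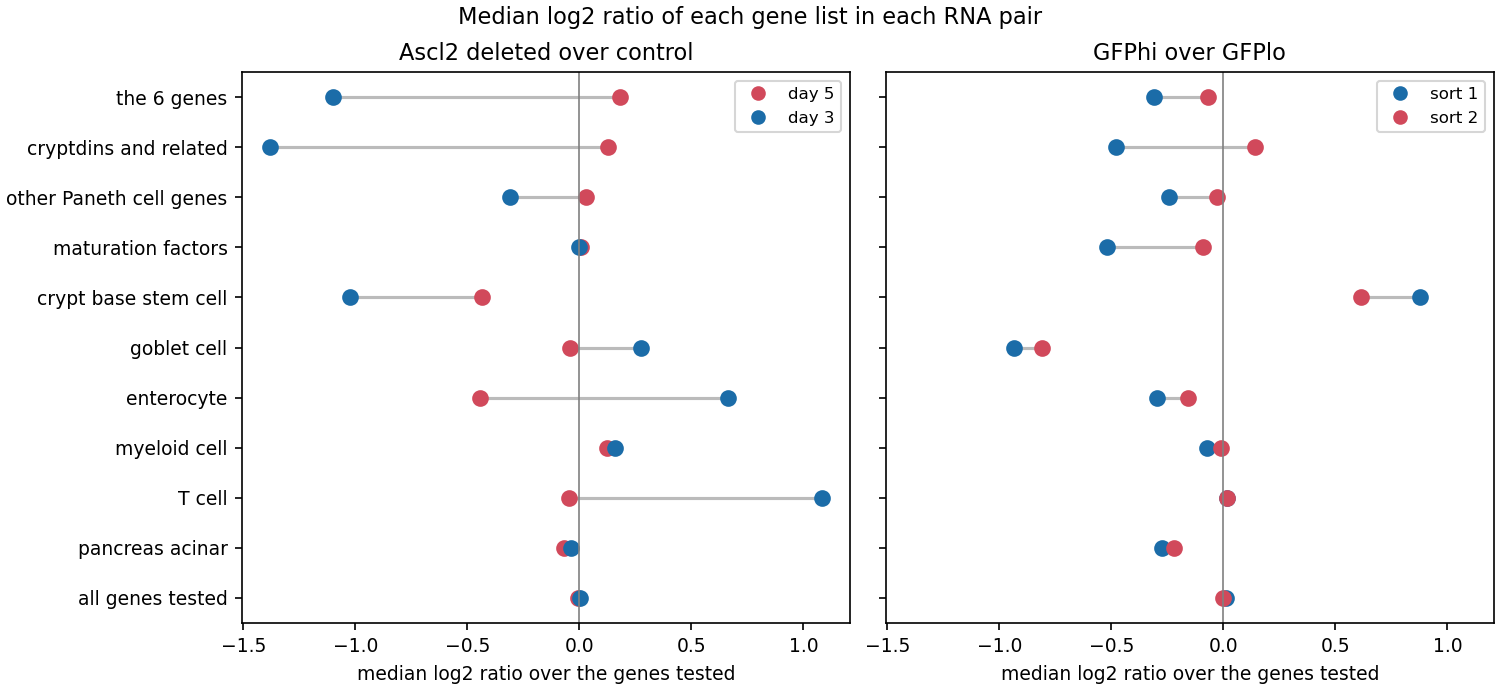
Median log2 ratio (x axis) over the tested genes of each list (y axis) in each RNA pair, deleted over control at left and GFPhi over GFPlo at right. The 6 genes and the cryptdins lie at 0.18 and 0.13 on day 5 and at -1.10 and -1.38 on day 3, while the T cell list lies at 1.08 on day 3.

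In all 6 members the ratio was higher on the array with deleted RNA in Cy5 than on its dye swap, by 0.15 to 1.04 on day 5 and by 0.26 to 0.56 on day 3. Over all genes that order held for 55.7% on day 5 and 54.4% on day 3. The mean of both arrays cancels such an offset, but on day 5 the sign of Lyz1, Itln1 and the brighter Ang4 probe depended on the orientation. On day 3 every member was below 0 in either orientation.

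In the sorts the question is whether granule RNA goes with the level of Lgr5, which marks crypt base stem cells and was itself 2.10 and 1.61 higher in GFPhi than in GFPlo cells (log2, sorts 1 and 2). Ascl2 was 0.36 and 0.37 higher there, and its log2 ratio of deleted over control was -1.32 on day 5 and -1.33 on day 3. By brightest probe, all 6 members were well above background in both sorted populations. The Lyz1 spot, which may hold Lyz2 RNA, had processed intensities of 64697 to 128352 in GFPhi cells and 66371 to 146395 in GFPlo cells, and the Pnliprp2 spot had 999 to 2451 in GFPhi cells and 959.9 to 3039 in GFPlo cells. The members' median log2 ratio was -0.19, with -0.31 in the first sort and -0.07 in the second, beside 0.00 over all genes tested. None of the 6 passed (limma adjusted p = 0.999 for each), as 0% of 10435 genes did, although 530 (5.08%) had an unadjusted p under 0.05. That fit shares its spread with the deletion days, which differed. With the sorts fitted alone, 114 genes passed and no member did.

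Mmp7 had the lowest ratio of GFPhi over GFPlo among the members, with -0.72 and -0.53 on the arrays of sort 1 and -0.71 and 0.02 on those of sort 2. The mean was -0.49 ± 0.20 (SD, n = 2), lower in GFPhi cells on 3 of 4 arrays, and Mmp7 had ranks 210 and 305 from the lowest of 10435 genes in sorts 1 and 2. Its standard error was 0.39 in the joint fit and 0.09 with the sorts fitted alone, where it did not pass (limma adjusted p = 0.0884). Ang4 had -0.39 and -0.56 in sort 1, and 0.12 and -0.29 in sort 2, and averaged -0.28 ± 0.27. Itln1 had -0.04 and -0.71 in sort 1, and -0.09 and -0.07 in sort 2, and averaged -0.23 ± 0.20. Pnliprp2 ran from -0.39 to -0.01 and averaged -0.15 ± 0.13. Itln1 and Pnliprp2 were below 0 on all 4 sort arrays, a pattern that 17.1% of tested genes showed. Lyz1 averaged 0.01 ± 0.22 and Lyz2 -0.07 ± 0.08, with arrays on both sides of 0.

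All 11 tested cryptdin genes had a mean below 0 in the sorts, as did 5199 of all 10435 genes tested. The cryptdin median was -0.14, with the list at -0.48 in sort 1 and 0.14 in sort 2. Sort 1 thus set the sign of these means, and the cryptdin probes may share RNA. The goblet cell list lay lower in GFPhi cells in both sorts, at -0.94 and -0.81, led by Agr2 at -2.05 and Tff3 at -1.93. Crypt base stem cell genes lay at 0.88 and 0.61, with 14 of 15 higher in GFPhi cells. That list includes Lgr5, the gene from which the GFP used for sorting is made. No gene of these lists passed the test in the joint fit.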

How the data were processed

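Trizol RNA was labelled by linear amplification, per the labels' protocols. Per the file headers, Agilent Feature Extraction 9.5.3.1 quantified the arrays, with probe positions on mm8. The deposited scanner files hold spot intensity values (foreground, background and processed) and the log10 ratio of Cy5 over Cy3, and those of day 5 were rounded by a spreadsheet. The deposited matrix holds log2 ratios, which correlated with the scanner's at 0.964 or more once turned and had medians from -0.0224 to 0.0347. Whether the authors centred them stays unknown.

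The background was corrected with normexp (offset 50), followed by loess within each array, and ratios were turned by the labels' dyes to deleted over control or GFPhi over GFPlo. Outlier-marked spots were left out. The 2 arrays of an RNA pair share both extracts and were averaged. Probes were named through RefSeq accessions or symbols, and 8148 of 41174 kept the file's name. The brightest probe stood for a gene, which was tested where 1 RNA or both kept that probe well above background on all their arrays. This left 10435 genes in the sorts and 15891 in the deletion. The share of spots well above background was 55.0% to 66.9% in deletion channels and 35.5% to 44.6% in sort channels. The small number of arrays limits precision.

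A joint fit of the 4 RNA pairs used limma 3.58.1 (lmFit, then eBayes; R 4.3.3; statmod 1.5.0; version 1.17.8 of data.table), with Benjamini-Hochberg adjustment over all genes tested and a two-sided threshold of 0.05. The day difference had a coefficient for each day. Fits were tested on simulated data in which each gene had the same spread in all 4 RNA pairs. Such data cannot show whether the spread of the sorts holds for a deletion day. The members, lists and tests were chosen with earlier results of these data known. Named are every member and the 3 genes closest to each, with names of accessions, clones or predicted genes passed over. Genes of a list were drawn from the up to 4 with the smallest p in each comparison, and not all of those are printed. Guca2b, Mptx1, Pla2g2a, Bhlha15, Neurog3, Defcr-rs2, Defcr-rs10, Rnase4, Mmp15, Timp2 and Timp3 were added after their values were seen. Probe sequences and proteins were not used here.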

Additional observations from a re-analysis of the deposited data

Results flagged for a closer look

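Among the 4 sort arrays, Itln1 was lowest on the sort 1 array with GFPhi RNA in Cy5, at a log2 ratio of GFPhi over GFPlo of -0.71, and this value lay apart from the other 3 by 0.91 of the whole range. These arrays are dye swaps of 2 RNA pairs, not 4 independent samples, so the usual chance rate of about 1 group in 20 does not apply.

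The log2 ratio of deleted over control differed between day 5 and day 3 by 1.59 for Lyz1, 1.46 for Lyz2, 1.51 for Mmp7, 2.63 for Ang4 and 1.56 for Itln1, each past limma's test of the difference. The test takes its spread from the sorts, and the deletion had 1 RNA pair a day.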

How the results depend on the processing

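Between 10 and 11 of the 13 settings tried kept the 5 day differences past the test, and all 13 kept their signs. The 5 calls fell to 0 with the scanner software's processed log ratios and with median centring without loess, and to 1 with a normexp offset of 0. Over all genes those settings left 0, 0 and 365 calls by limma, against 4540, with 3011, 2519 and 3860 genes at an unadjusted p under 0.05. The members' median day difference was 1.54, and 1.32 with median centring. Fitted over genes tested in both comparisons alone, a setting chosen after seeing the data, the day difference called 2560 genes and 5 members.

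In the deletion the number of members past the test was 0, was 1 with the RNA pair as a random block (254 genes), and was 2 and 6 without day 3 and without day 5. Without day 3 the members' median was 0.18, with Lyz1 at 0.39, Lyz2 at 0.46 and Mmp7 at 0.69, each above 0. Mmp7 was also above 0, at 0.15, on arrays with deleted RNA in Cy5 alone. In the sorts no setting put a member past the test. Lyz1 (0.01) turned below 0 with no background subtraction (-0.0056), scanner log ratios (-0.0926), matrix values (-0.0448), median centring (-0.181), arrays with GFPhi RNA in Cy3 alone (-0.0144) and without sort 2 (-0.15). Lyz2 turned above 0 (0.0365) with GFPhi RNA in Cy5 alone. Fitted alone, the sorts called 114 genes and no member.

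No paired analysis was possible because each RNA pair is its own contrast. A slide block was not run, since each slide holds 1 RNA pair. Signal over background limits the dimmer Lyz2 probe, well above background in 1 of 8 sort channels.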
